A study of Mus musculus with 45 samples.

Results

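Cluster C11 was a group of erythroblast nuclei that came almost wholly from Stag2 WT mice, and the 3607 WT nuclei of that cluster are described here. They were chosen by 2 labels that the authors gave each nucleus, the cluster and the genotype, out of 34073 nuclei in 6 libraries, 19674 of them WT. Only 2 nuclei of C11 were Stag2 KO. The libraries were the ATAC part of single-nucleus multiome libraries of sorted Ter119+ erythroblasts, 3 WT and 3 KO, from mice taken 6 to 8 weeks after pIpC, a synthetic double-stranded RNA that induces interferon; the dating from pIpC applies to the WT mice too. The Stag2 protein belongs to cohesin, a ring-shaped complex that shapes chromatin loops. The strain, the age and sex of the mice, the promoter that drives the recombinase and the number of animals behind each library were not given in the sources used here, so the spread between libraries may be partly technical. The other WT clusters of the same 3 libraries served for comparison: C9 with 1835 nuclei and C6 with 2834, which hold the other large Int (intermediate) groups, and C3 with 10059 nuclei, a Late group.

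Erythroblasts are the nucleated precursors of red cells. As they mature, the transcription factor Gata1 replaces Gata2 at shared sites, Klf1 and Gata1 together drive the genes for globin, heme and the membrane skeleton, signalling from the erythropoietin receptor through STAT5 supports survival, and the cell finally condenses and expels its nucleus. The transferrin receptor, encoded by Tfrc, brings in the iron for heme.

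C11 made up 15.1% of the nuclei of WT replicate 1 (1036 nuclei; 95% Wilson interval 14.3 to 15.96), 16.4% of replicate 2 (953 nuclei; 15.4 to 17.4) and 23.1% of replicate 3 (1618 nuclei; 22.2 to 24.2), intervals that cover counting error only. The mean was 18.2% ± 4.33 (SD, n = 3 libraries), and replicate 3 stood above the others. The authors classed all but 1 of these nuclei as Int, and C11 held 46.3%, 37.2% and 40.5% of the WT Int nuclei of replicates 1, 2 and 3. No C11 nucleus was found among the 4857 and 4617 nuclei of KO replicates 1 and 2, which allows shares of up to 0.0790% and 0.0831% (upper Wilson bounds); the 2 KO nuclei came from the 4925 of KO replicate 3. Cell barcodes were shared between WT libraries by few C11 nuclei: 82 had a barcode that also occurred in another WT library, and 8 barcodes occurred more than once within C11.

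Nuclei of C11 were deeply sequenced. Their median was 15318.5, 15501 and 14126 ATAC fragments in replicates 1, 2 and 3, against 19427.5, 17341 and 16659 in C9, 5027, 5872 and 5189 in C6, and 6960, 6626 and 5771 in C3. C11 was thus below C9 in every library and above C6 and C3 in every library. Enrichment at transcription start sites was 33.2 ± 2.32 in C11, higher than in C9 by 3.22 ± 0.37 and lower than in C6 by a difference of -3.05 ± 0.16 (SD of the within-library differences, n = 3). Of the fragment ends of a median nucleus, the share in peaks was 56.7% ± 3.07 in C11, 56.1% ± 2.97 in C9, 62.9% ± 1.94 in C6 and 65.0% ± 1.23 in C3. A doublet score above 0 was held by 18.2% ± 8.39 of C11 nuclei, 19.99% ± 4.26 of C9, 6.33% ± 3.70 of C6 and 10.9% ± 4.23 of C3, and the C11 share was above that of C6 in every library. The share of fragment ends in promoters was higher in C11 than in C9 by 2.84 ± 0.37 percentage points. Against C6 and C3 it was lower, with differences of -5.71 ± 1.13 and -6.13 ± 1.26. The nucleosome ratio was 0.78 ± 0.06 in C11, 0.84 ± 0.07 in C9, 0.75 ± 0.07 in C6 and 0.84 ± 0.08 in C3. Fragments per nucleus, the shares of ends in peaks and in promoters and the nucleosome ratio thus moved with all 3 comparisons. Enrichment at start sites moved with those against C9 and C6. Their part in the results was not tested beyond the matched draws given below.

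**Figure D1:**
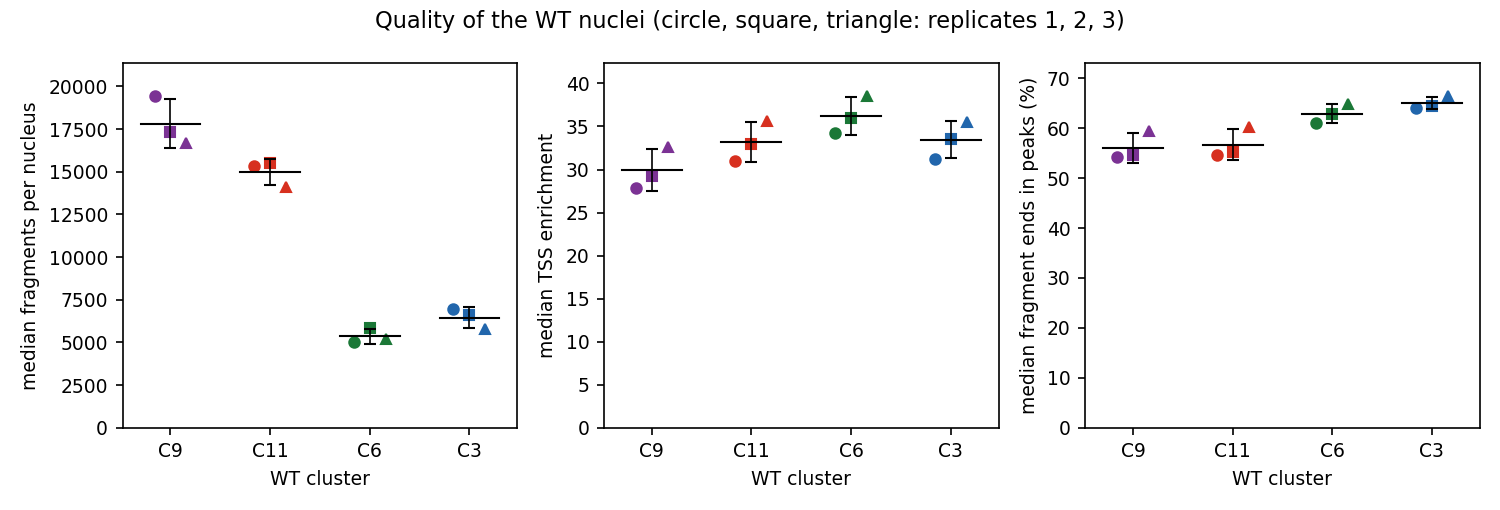
Median ATAC fragments per nucleus, median enrichment at transcription start sites and median share of fragment ends in peaks (y axes) for 4 WT clusters (x axis). Each symbol is 1 library, the line is the mean of 3 libraries and the bar the SD; C11 lies near C9 in fragments (means 14982 and 17809) and well above C6 (5363) and C3 (6452).

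The measurement was the gene score, a sum of ATAC fragments in and around a gene that reports accessibility and not expression. In each library the scores of a cluster's nuclei were averaged and put on a scale that sums to 1000000 over 24333 genes. Differences are the mean of the 3 within-library log2 differences, C11 minus the other cluster, on log2(score + 1), a scale that understates changes of low scores. A gene is called past the fold where that mean reached 0.5 in size and all 3 libraries had its sign. Clusters were made from these same nuclei, so no p-value is given between them; calls are descriptions, read beside the share of all tested genes that passed.

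The markers named for C11 were present. Klf1, the erythroid Krüppel-like activator, scored 255, 249 and 262 in replicates 1, 2 and 3 of C11. Gata1 scored 91.4, 89.6 and 94.3. Tfrc scored 173, 164 and 171. None of the 3 set C11 apart from its neighbours: Klf1 was 222 ± 7.69 in C9, 264 ± 25.4 in C6 and 221 ± 9.72 in C3, and no difference for Klf1, Gata1 or Tfrc reached the fold. Other erythroid genes were well above the scores of other lineages, with Slc4a1 (the band 3 anion exchanger) at 368, Hbb-bs (adult beta globin) at 312 and Alas2 (the first enzyme of erythroid heme synthesis) at 97.1 in C11. Stag2 itself scored 56.2, 58.1 and 62.0 in C11 and 64.0 ± 1.63 in C9.

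In C11 the summed score of each list of markers of other cell types was below that of the globin genes. None of these markers scored under 1 there. For scale, the median C11 score of the genes tested against C9 was 23.5. The 12 stem and progenitor markers summed to 119 to 149 over the 3 libraries, the 17 myeloid markers to 228 to 262, the 12 macrophage markers to 267 to 284, the 17 lymphoid markers to 220 to 254, the 12 megakaryocyte markers to 348 to 380, the 8 mast and basophil markers to 36.9 to 54.1 and the 8 endothelial and stromal markers to 75.9 to 92.4. By comparison the 8 globin genes summed to 1403 to 1574.

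Promoter sequences are shown for 4 genes that the results turn on: Klf1, a marker that hardly varied among these clusters; Gata2 and Jun, which were lower in C11 than in C9; and Hba-a1, an alpha globin gene lower in C11 than in C3. Each is the 250 bases before the RefSeq start (GRCm38.p6), 5′ to 3′. Capitals mark matches to GATAA, the core bound by GATA factors, and to CCACCC, the box bound by Krüppel-like factors, on either strand; 3 other motifs were searched and do not occur in these 4 windows: the AP-1 motif TGANTCA, the STAT motif TTCNNNGAA and the E-box CACGTG. No match in these windows overlaps another.
Klf1: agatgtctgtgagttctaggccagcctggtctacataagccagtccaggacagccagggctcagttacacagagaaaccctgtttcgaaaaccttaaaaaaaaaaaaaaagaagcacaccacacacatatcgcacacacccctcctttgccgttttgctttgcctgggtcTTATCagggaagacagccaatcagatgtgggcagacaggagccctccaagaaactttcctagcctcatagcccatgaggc
Gata2: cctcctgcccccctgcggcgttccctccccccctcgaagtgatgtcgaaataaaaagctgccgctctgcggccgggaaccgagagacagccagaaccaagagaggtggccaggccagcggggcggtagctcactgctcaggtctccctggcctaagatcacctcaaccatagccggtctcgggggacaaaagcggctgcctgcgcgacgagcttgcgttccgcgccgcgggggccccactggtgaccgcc
Jun: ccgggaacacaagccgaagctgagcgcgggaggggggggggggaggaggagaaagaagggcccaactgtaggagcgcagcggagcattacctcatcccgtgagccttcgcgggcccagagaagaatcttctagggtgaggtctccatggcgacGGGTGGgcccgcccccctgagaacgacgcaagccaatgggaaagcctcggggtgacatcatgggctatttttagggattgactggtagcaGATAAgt
Hba-a1: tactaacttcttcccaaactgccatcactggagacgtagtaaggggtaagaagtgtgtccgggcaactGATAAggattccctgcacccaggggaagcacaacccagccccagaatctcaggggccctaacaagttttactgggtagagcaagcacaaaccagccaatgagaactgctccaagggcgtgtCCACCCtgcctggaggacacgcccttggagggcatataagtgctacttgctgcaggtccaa
The windows lie at chr8:84901732-84901981, plus strand (Klf1, whose start is 54 bases from that in the table of scores), chr6:88193641-88193890, plus strand (Gata2), chr4:95052223-95052472, minus strand (Jun) and chr11:32283422-32283671, plus strand (Hba-a1). GATAA was found once in each of Klf1, Jun and Hba-a1, and CCACCC once in each of Jun and Hba-a1. Of all 32851 promoter windows of the RefSeq table, 22.6% held GATAA and 28.1% held CCACCC, so these matches are common. Among genes with a matched window, GATAA stood in 18.0% of the 1358 that were lower in C11 than in C9, beside 16.8% of the 13346 tested.

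Against C9, the other deep Int cluster, C11 had lower scores at some genes of the progenitor stage (5 of 15), of STAT5 signalling (5 of 15) and of the immediate early class (4 of 14), while no globin, heme, membrane or maturation gene of the lists was past the fold. Of 19303 genes tested, 1985 (10.3%) were past the fold lower in C11 and 313 (1.62%) higher, and the median difference over all of them was -0.00015. From the lowest to the highest quartile of genes by mean score, 5.62%, 20.1%, 13.3% and 2.09% were lower. The 10.3% is thus not a share of genes of like score. The part of score level in the list counts was not tested. The lower genes lay at 1230 loci when genes starting within 100 kb of each other were joined; neighbouring genes share fragments in a score of this kind. Of the genes higher in C11, the count depended on the nuclei, libraries and settings used. It was 216 without replicate 1, 651 without replicate 2 and 576 without replicate 3. When nuclei of both clusters were matched on fragments it was 1087, and without the highest doublet scores 612. It was 764 with no filter, 25 with a pseudocount of 5 and 20 with a minimum mean score of 20. The lower genes numbered between 1572 and 2199 with libraries left out or nuclei matched, 1294 with that pseudocount and 1063 with that minimum.

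The progenitor-stage list gave 5 of 15 genes lower in C11 than in C9 and none higher, with a list median of -0.22. Myc, a driver of growth and division (chr15:61985341-61990361), scored 34.6, 35.5 and 30.4 in C11 and 92.1, 104 and 83.8 in C9, a difference of -1.45 ± 0.07. The groups did not overlap. Gata2, the GATA factor of earlier progenitors (chr6:88193891-88207032), scored 16.01, 18.4 and 14.9 in C11 and 38.1, 38.7 and 29.7 in C9, a difference of -1.06 ± 0.13, again with every C11 library below every C9 library. It was near C6 (13.1 ± 1.77) and C3 (12.2 ± 0.455). With nuclei matched on fragments the differences from C9 were -1.48 for Myc and -0.85 for Gata2. The others were Cdk6, a kinase of the early cell cycle (-0.73 ± 0.13), Cd44, an adhesion receptor that is lost during maturation (-0.61 ± 0.02), and Bmi1, a Polycomb subunit (-0.63 ± 0.16). Kit, the stem cell factor receptor, was 14.6 ± 1.16 in C11 and 17.4 ± 4.01 in C9, and its libraries overlapped. Epor, the erythropoietin receptor, was 163 ± 8.48 against 131 ± 2.89, a difference of 0.31 ± 0.10 that did not reach the fold.

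Most erythroid transcription factors were close to their C9 level, with a list median of -0.01. Of 16 genes 2 were past the fold, both lower, a share near the 10.3% of all tested genes. Bcl11a, a repressor of embryonic-type globin genes, scored 70.7, 73.5 and 69.8 in C11 and 136, 143 and 134 in C9 (-0.94 ± 0.01), which put C11 near C6 (61.2 ± 2.92) and C3 (56.5 ± 5.11). Nfia, a nuclear factor I protein, was the other (-0.63 ± 0.03). Klf3 (0.35 ± 0.05) and Lyl1 (0.30 ± 0.03) were the highest of the list, both short of the fold.

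In the erythropoietin and STAT5 list 5 of 15 genes were lower in C11 and the median was -0.37. Stat5a, one of the 2 STAT5 proteins, scored 17.0, 18.8 and 14.8 in C11 and 34.4, 35.6 and 30.6 in C9 (-0.96 ± 0.06). Its neighbour Stat5b was lower by a difference of -0.67 ± 0.10, Trib3, a stress-induced pseudokinase, by -1.06 ± 0.05, the kinase gene Pim3 by -0.51 ± 0.06 and the cytokine gene Osm by -0.54 ± 0.10. Of the 15 genes 5 had a difference above 0, among them Cish, a feedback inhibitor (0.15 ± 0.10), and Bcl2l1, which encodes the survival protein Bcl-xL (0.29 ± 0.07). With matched nuclei 3 of the 15 genes were past the fold, the calls of Pim3 (-0.48) and Osm (-0.39) having ended, and the summed score of the list was 1401 ± 25.1 in C11 and 1405 ± 19.4 in C9.

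Immediate early genes, which respond within minutes to stimulation, gave 4 of 14 lower. Jun, a subunit of AP-1 (chr4:95049036-95052222), scored 34.6, 32.0 and 25.9 in C11 and 81.5, 89.6 and 59.9 in C9 (-1.28 ± 0.15). Fosb (-0.92 ± 0.20), Egr1 (-0.69 ± 0.02) and Fos (-0.58 ± 0.11) were the others, while Dusp1, a phosphatase of MAP kinases, and Btg2, an inhibitor of proliferation, were at 0.20 ± 0.06 and 0.22 ± 0.03. Their list median was -0.16, and with matched nuclei it was -0.04, with 3 of 14 past the fold. No gene of the globin, heme, iron, membrane, terminal maturation, mitosis, ribosome biogenesis or cohesin lists was past the fold against C9. Rrm2, a ribonucleotide reductase subunit, was the 1 call of 24 replication genes (-0.60 ± 0.26), and Irf1, an interferon regulatory factor, that of 13 interferon genes, with overlapping libraries (-0.55 ± 0.41; 7.36, 6.47 and 5.39 in C11 and 10.2, 14.0 and 6.43 in C9). With matched nuclei both calls ended (-0.48 for Rrm2 and -0.36 for Irf1), as they did with a pseudocount of 5. Among the 14 lists of erythroid genes and cell processes the highest medians were those of mitosis (0.22; 19 of 20 genes above 0) and terminal maturation (0.16; 19 of 20 above 0). Beside them stands a median of 0.09 over the highest quartile of tested genes by mean score. The share of all tested genes above 0 was not counted. Cenpf, a kinetochore protein, stood at 0.41 ± 0.04 and Gabarapl2, an autophagy protein, at 0.46 ± 0.06.

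**Figure D2:**
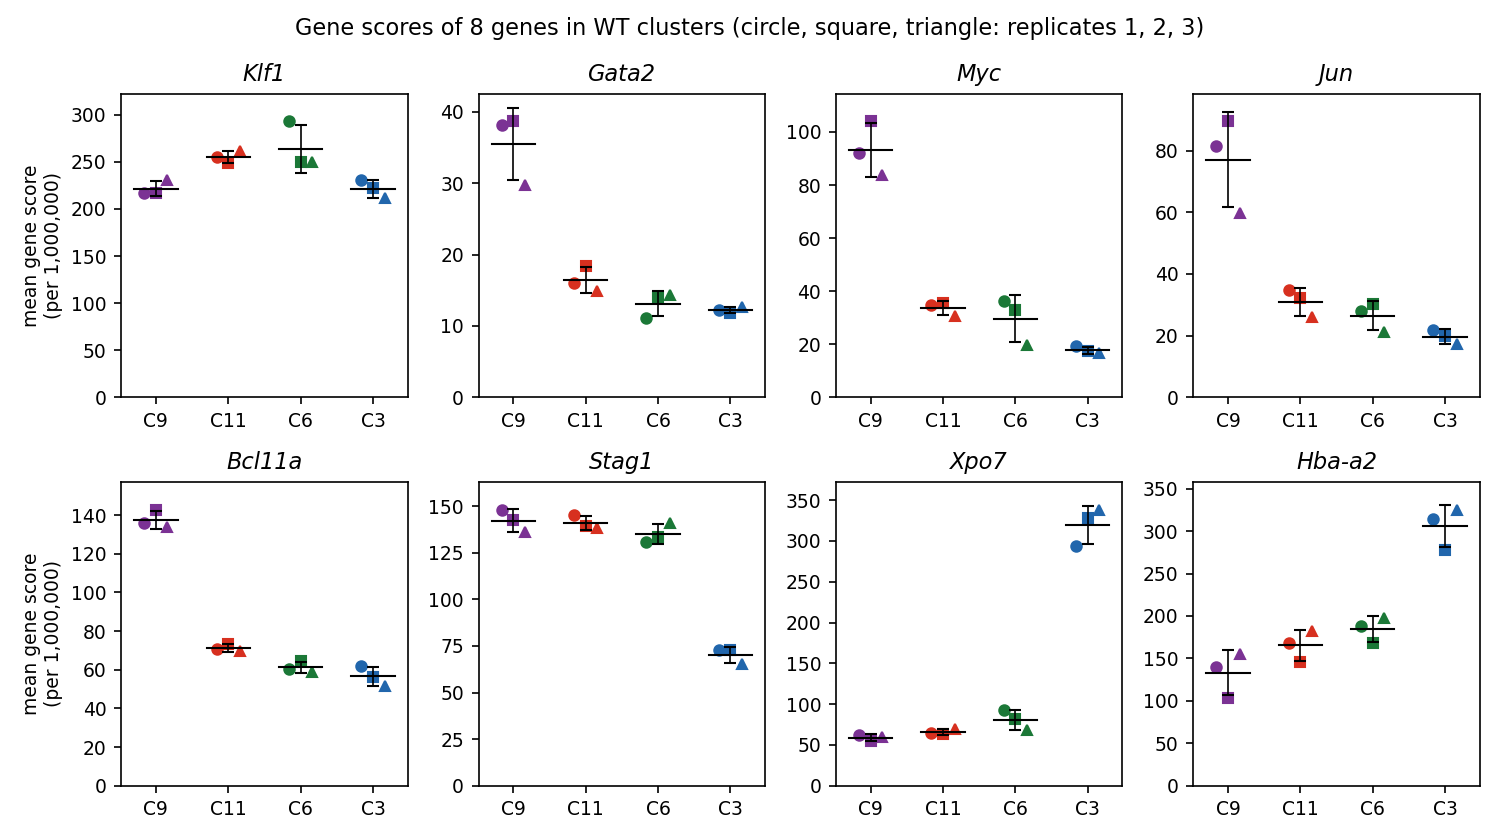
Mean gene score per 1000000 (y axis) of 8 genes in WT clusters C9, C11, C6 and C3 (x axis). Symbols are the 3 libraries, lines the mean and bars the SD; for Gata2, Myc, Jun and Bcl11a the C11 symbols lie below all of C9, and for Xpo7 and Hba-a2 below all of C3.

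Single genes with the lowest differences from C9 had low scores in C11. Mcpt9, a mast cell protease gene, scored 4.16, 4.51 and 5.14 in C11 and 17.8, 19.3 and 18.6 in C9 (-1.81 ± 0.11), and the nearby Mcpt1 (-1.72 ± 0.24) followed. The mean of Mcpt9 in C11 was 4.60, under the minimum of 5. It passed that minimum only through C9 and had to be lower in C11. Scores of Mcpt9 and Mcpt1 in both clusters were far below those of the erythroid genes above. Taar7b, Taar7f, Taar7e and Taar7d, adjacent and similar odorant receptor genes of the trace amine family, had differences of -1.70, -1.70, -1.63 and -1.57; all 7 neighbours of Taar7b tested within 100 kb were also lower, so they count as 1 locus. H2afy3 (chr15:62217541-62219451) was at -1.65 ± 0.25 and the water channel gene Aqp8 at -1.59 ± 0.23. The sum of the 8 mast and basophil markers was 36.9 to 54.1 in C11 and 46.2 to 65.5 in C9, and 1 of the 4 tested, Ms4a2, was past the fold lower. Of the other cell types, 1 of 11 stem and progenitor (Hoxa9), 1 of 10 macrophage (Cd163), 1 of 12 lymphoid (Vpreb1) and 1 of 9 megakaryocyte markers (Gp1ba) were lower. Of 15 myeloid markers 0 were past the fold, and 1 of 8 endothelial and stromal markers, Cdh5, was higher. Beside these counts stand 10.3% lower and 1.62% higher of all tested genes. Cdh5 had a mean under 5 in C9 and passed that minimum only through C11. The call of Gp1ba ended with matched nuclei (-0.48). The part of these markers in the differences from C9 was not tested.

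Genes past the fold higher than C9 had a median score of 8.97 in C11 against 5.55 in C9. Of these genes 42.2% were predicted models, small RNA genes or olfactory or vomeronasal receptor genes, beside 17.6% of all tested genes. The leading named ones were Tdpoz4 (0.83 ± 0.46), Atp6v1e2 (0.81 ± 0.06), Rtp2 (0.78 ± 0.25), Pax3 (0.77 ± 0.43) and Slc6a2 (0.76 ± 0.56). Their mean scores in C11 ran from 6.74 for Atp6v1e2 to 8.81 for Pax3, far below the erythroid genes. All 5 had a mean under the minimum of 5 in C9, so they passed it only through C11 and had to be higher there.

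Against C6, the shallower Int cluster, C11 differed almost only at low scores. Of 18712 genes tested, 1604 (8.57%) were past the fold higher in C11 and 1 (0.00534%), the taste receptor gene Tas2r125, was lower (-0.51 ± 0.15). Tas2r125 had a mean of 4.69 in C11, under the minimum of 5. It passed that minimum only through C6 and had to be lower in C11. The median over all tested genes was 0.13, and after centring on that median 668 genes were higher and 31 lower. In the lowest quartile of genes by mean score 21.9% were higher, and in the highest quartile 0.0214%. When nuclei were matched on fragments (161, 188 and 289 nuclei of each cluster per library) 994 genes were higher and 297 lower, of which 378 were among the 1604 and 8 were past the fold in the opposite direction. The fragment counts of the clusters thus moved with this comparison.

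The erythroid lists showed no call against C6 in either direction: erythroid transcription factors, progenitor-stage, globin, heme, iron, membrane, terminal maturation, mitosis, erythropoietin and STAT5, immediate early, and cohesin genes. With nuclei matched on fragments 2 of 15 progenitor-stage genes were past the fold higher, as were 1 of 14 heme genes and 1 of 14 erythropoietin and STAT5 genes, and Myc stood at 0.84. Xpo7, an exportin of terminal erythroblasts, was at -0.28 ± 0.28, Hbb-bs at -0.19 ± 0.05, Myc at 0.22 ± 0.35 and Gata2 at 0.31 ± 0.22. Tyms, the thymidylate synthase gene, was the 1 call of the replication list (0.80 ± 0.37; 17.8, 21.8 and 17.4 in C11 and 7.75, 11.2 and 13.1 in C6). Utp20, of ribosome biogenesis, and Irf1 were the calls of their lists (0.76 ± 0.26 and 0.71 ± 0.67). The mean of Irf1 in C6 was under 5, so it passed that minimum only through C11, and its call ended with a pseudocount of 5 (0.41) and without replicate 1 (0.36) and could not be made without replicate 3. Gpr25, an orphan receptor, was highest of the named genes (1.23 ± 0.69), with 10.0, 9.82 and 6.12 in C11 and 3.08, 2.14 and 4.20 in C6, and Tnfsf9, the ligand of 4-1BB, followed (1.07 ± 0.39, and 0.40 with matched nuclei). Both had a mean under 5 in C6 and passed that minimum only through C11. Of the lymphoid markers 4 of 10 tested were higher in C11, of the endothelial and stromal markers 3 of 8, of the myeloid markers 2 of 14, of the megakaryocyte markers 1 of 7, of the macrophage markers 0 of 10, of the mast and basophil markers 0 of 2, and of the stem and progenitor markers 1 of 8 (Mecom, 0.52 ± 0.02). Beside these counts stand 8.57% of all tested genes and 21.9% of the lowest quartile by mean score. Of the called markers 1 lymphoid and 2 endothelial and stromal ones had a mean under 5 in C6. They passed that minimum only through C11 and had to be higher. With matched nuclei the lymphoid, endothelial, myeloid and stem counts were 0 of 10, 1 of 6, 0 of 15 and 1 of 8; Mecom was then at 0.28 and not past the fold, and 1 stem marker was lower. After median centring the same 4 counts were 0 of 10, 1 of 8, 1 of 14 and 0 of 8. Their part in the comparison was not tested.

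Against C3, the Late cluster, C11 had higher scores at 8 of 15 progenitor-stage genes and at many long genes of low score, and lower scores at alpha globin genes and at 9 of 20 terminal maturation genes. Of 17344 genes tested, 4889 (28.2%) were past the fold higher in C11 and 778 (4.49%) lower. The median over all was 0.12, and after centring on it the counts were 4115 higher and 1476 lower. With nuclei matched on fragments they were 3324 and 1481, of which 3081 and 666 were among the first counts.

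The terminal maturation list gave 9 of 20 genes lower in C11 than in C3 and 2 higher, with a median of -0.49. Xpo7 (chr14:70654246-70766628), needed for nuclear condensation and enucleation, scored 65.1, 63.2 and 69.8 in C11 and 294, 328 and 338 in C3, a difference of -2.26 ± 0.10 that was the lowest of the named genes against C3. It ranged from -2.37 to -2.19 over the alternatives. Every C11 library lay far below every C3 library, and C9 (58.9 ± 4.08) and C6 (81.0 ± 12.3) lay with C11. Ube2o, a ubiquitin ligase that clears proteins from reticulocytes, was at -1.04 ± 0.03, Bcl2l1 at -0.96 ± 0.05, Ulk1, an autophagy kinase, at -0.75 ± 0.02, and Bnip3l, a mitophagy receptor, at -0.72 ± 0.02. Riok3, Trim58, Gabarapl2 and Ypel4 were also lower. Hemgn, a nuclear protein of erythroblasts, was higher (0.70 ± 0.08), with 235, 225 and 236 in C11 and 153, 135 and 138 in C3. Alox15 was higher at low scores (0.56) and passed the minimum mean score only through C11. With matched nuclei 7 genes of the list were lower and 1 higher, Gabarapl2 (-0.44), Ypel4 (-0.43) and Alox15 (0.34) no longer being past the fold, and after median centring 12 and 1.

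Globin genes gave 5 of 8 lower in C11 than in C3 and a median of -0.58, and 7 after median centring. Hba-a1 scored 183, 175 and 194 in C11 and 296, 290 and 284 in C3 (-0.66 ± 0.10), and its near-identical copy Hba-a2 scored 169, 146 and 182 against 315, 278 and 325 (-0.88 ± 0.05). The groups did not overlap, but reads of the 2 copies may not be told apart and all genes of the locus share fragments. Hbq1a (-1.004 ± 0.03), Hbq1b (-0.57) and Hba-x (-0.60 ± 0.27), in the same alpha globin cluster, were past the fold too. The call of Hbq1b ended with matched nuclei (-0.49) and that of Hba-x without replicate 1 (-0.49). Hbb-bs, in the beta globin cluster, fell just short at -0.49 ± 0.03. Against C9 the list median was 0.15 and none was past the fold.

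Of 24 membrane genes 2 were lower than in C3 and 1 was higher. Epb41, which encodes protein 4.1 of the skeleton, was lower (-0.92 ± 0.01), with 290, 266 and 282 in C11 and 555, 506 and 530 in C3. Slc4a1 was lower too (-0.53 ± 0.03, and -0.36 with matched nuclei, which ended its call). The water channel gene Aqp1 was higher (0.87 ± 0.19). Heme genes gave 1 of 14 lower, Blvrb (-0.57), a reductase of heme breakdown products, with none lower for matched nuclei, and iron genes gave 2 of 16 higher, among them Steap3, a ferrireductase (0.61 ± 0.02). The iron count stands beside 28.2% of all tested genes, a share that was 11.3% and 3.90% in the third and highest quartiles by mean score. After median centring the iron count was 0 higher and 1 lower. Gfi1b, a repressor of erythroid and platelet cells, was higher (0.98 ± 0.11) and its partner in such complexes Cbfa2t3 lower (-0.59 ± 0.05). They were the 2 calls among 16 transcription factors, beside 28.2% of all tested genes higher and 4.49% lower. After median centring 1 of the 16 was higher and 3 lower.

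In the progenitor-stage list 8 of 15 genes were higher in C11 than in C3 and none lower, with a median of 0.73. Of the 8, 1 had a mean under 5 in C3, passed that minimum only through C11 and had to be higher. Beside this count stand 28.2% of all tested genes. The share was 63.3%, 34.3%, 11.3% and 3.90% from the lowest to the highest quartile by mean score. In the longest quartile of genes it was 50.7%. This comparison and that against C9 share the C11 libraries. Kit scored 13.3, 15.5 and 15.0 in C11 and 4.94, 5.33 and 4.75 in C3 (1.38 ± 0.10), and Myc was at 0.88 ± 0.09. Mycn (1.84 ± 0.10), Hmga2 (1.28), Bmi1 (0.81), Cd44 (0.78), Myb (0.75) and Ikzf1 (0.73) made up the rest. With matched nuclei 5 of 15 were higher and 1 lower, and Myc (0.49), Cd44 (0.45) and Myb (0.44) were no longer past the fold. Gata2 did not reach the fold (0.40 ± 0.19).

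Replication genes gave 5 of 24 higher, and 4 of 24 after median centring, among them Tyms (1.40 ± 0.15) and Rrm1, a ribonucleotide reductase subunit (0.90). Of all tested genes 28.2% were higher, but this share fell with score. It was 63.3% in the lowest quartile by mean score, 11.3% in the third and 3.90% in the highest, so the 28.2% is not a share of genes of like score. The mitosis list gave 1 of 20, the kinase gene Cdk1, with 83.4, 86.0 and 88.9 in C11 and 44.1, 41.6 and 38.3 in C3 (1.04 ± 0.14). Of the 11 cohesin and CTCF genes 3 were higher, beside 28.2% of all tested genes and the lower shares of the upper quartiles by score. After median centring 2 were higher and 2 lower, and with matched nuclei 3 were higher and 1 lower, Smc1a (0.42) no longer being past the fold. Stag1, the paralogue that can stand in for Stag2 in cohesin, scored 145, 139 and 138 in C11 and 72.7, 72.6 and 65.3 in C3 (0.996 ± 0.07), while in C9 and C6 it was 142 ± 6.00 and 135 ± 5.25. Pds5a, a cohesin regulator, was at 0.71 ± 0.06 and Smc1a, a ring subunit, at 0.56. Stag2 was at -0.24 ± 0.05.

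The lists that follow held 2 to 5 calls each against C3, beside 28.2% of all tested genes higher and 4.49% lower. In the erythropoietin and STAT5 list 4 of 14 genes were lower, Bcl2l1, Id1 (-0.69 ± 0.07), the kinase gene Pim1 (-0.53 ± 0.02) and Trib3 (-0.53 ± 0.42), and the feedback inhibitor Socs1 was higher (0.66 ± 0.02). With matched nuclei the calls of Socs1 (0.21) and Pim1 (-0.39) ended, and that of Trib3 ended without replicate 2 (-0.29). Jun (0.62 ± 0.06) and Dusp1 (0.74 ± 0.15) were higher among 14 immediate early genes, beside the 28.2% of all tested genes, a share that fell with mean score. With matched nuclei Jun was at 0.17 and Utp20 at 0.23, and 1 gene of the list was higher and 1 lower. The antiviral genes Ifit1 (-0.85 ± 0.10) and Rsad2 (-0.87 ± 0.08) were lower among 11 interferon genes. Utp20 (0.65 ± 0.14) was higher and Wdr43 (-0.64 ± 0.11) lower among 14 genes of ribosome biogenesis, where 4 were lower after median centring and 2 with matched nuclei.

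**Figure D3:**
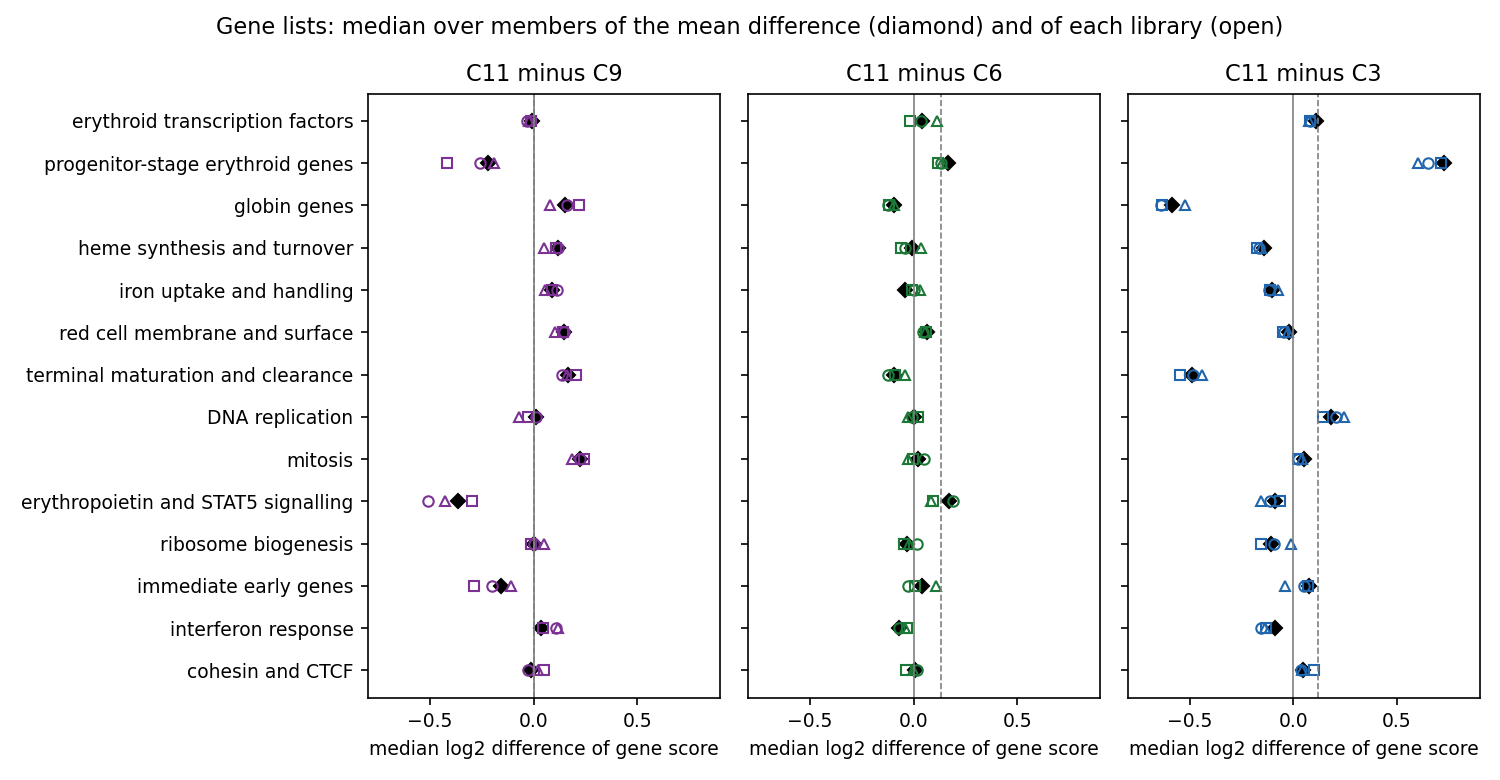
Median over list members of the log2 difference of the gene score, C11 minus C9, C6 and C3 (x axes), for 14 gene lists (y axis). Diamonds are the median of the mean differences and open symbols the medians within each library; the dashed line is the median of all tested genes. The progenitor-stage list lies at -0.22, 0.17 and 0.73, and the globin list at 0.15, -0.10 and -0.58.

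The genes highest above C3 were long. Their C3 scores are so low that they passed the minimum mean score only through C11, so genes named here had to be higher in C11. Fam19a5, a brain-secreted protein gene, scored 24.3, 15.8 and 14.5 in C11 and 1.47, 1.32 and 1.56 in C3 (2.94 ± 0.39). Zfp536 (2.86 ± 0.15), Cacna2d3, a calcium channel subunit gene (2.81 ± 0.14), Spock1 (2.80 ± 0.07), Tshz3 (2.77 ± 0.20), Tenm3, a teneurin (2.75 ± 0.20), Fam155a (2.75 ± 0.38) and Ptprg, a receptor phosphatase (2.72 ± 0.16), completed the 8 highest. Their mean scores in C3 ran from 0.727 for Tshz3 to 4.76 for Ptprg. Genes higher in C11 had a median length of 39432 bases against 18275 for all tested, and in the longest quartile of genes 50.7% were higher. By level, 63.3% of the lowest quartile and 3.90% of the highest quartile were higher. Fragments per nucleus, peak share and class also differed between C11 and C3, and their parts in this pattern were not tested. The other lowest genes against C3 were Zfp874a (-1.99 ± 0.09), Fam229a (-1.98 ± 0.13), Zfp874b (-1.92 ± 0.07), Khnyn (-1.81 ± 0.08), Cbln3 (-1.78 ± 0.04), Tbcel (-1.75 ± 0.02) and Tmem200b (-1.57 ± 0.18); Zfp874a and Zfp874b, and Khnyn and Cbln3, are neighbours.

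Some markers of other cell types were higher in C11 than in C3: 5 of 7 stem and progenitor markers tested, 4 of 6 macrophage, 5 of 10 lymphoid, 4 of 14 myeloid, 3 of 8 megakaryocyte, 3 of 5 endothelial and stromal, and 0 of 2 mast and basophil markers. Cebpe, a granulocyte factor, was the 1 lower (-1.04). With matched nuclei the higher ones were 5 of 8 stem and progenitor, 2 of 7 macrophage, 3 of 11 lymphoid, 1 of 15 myeloid, 1 of 8 megakaryocyte and 3 of 5 endothelial and stromal markers, and 2 myeloid markers were lower. These counts stand beside 28.2% of all tested genes. Most of these lists had low summed scores, and more genes of low score were higher. The share was 63.3% in the lowest and 34.3% in the second quartile by mean score (median scores 6.85 and 15.6). Part of the higher markers had means under 5 in C3 and passed that minimum only through C11, so they had to be higher. They were 3 of the 4 macrophage, 3 of the 4 myeloid and 3 of the 3 endothelial and stromal markers. The same held for 1 of the 5 stem and progenitor, 2 of the 5 lymphoid and 1 of the 3 megakaryocyte markers, so the counts are a description. The summed scores of the lists in C3 were 55.1 to 64.2 for stem and progenitor markers and 301 to 316 for myeloid markers. Their part in the comparison was not tested.

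**Figure D4:**
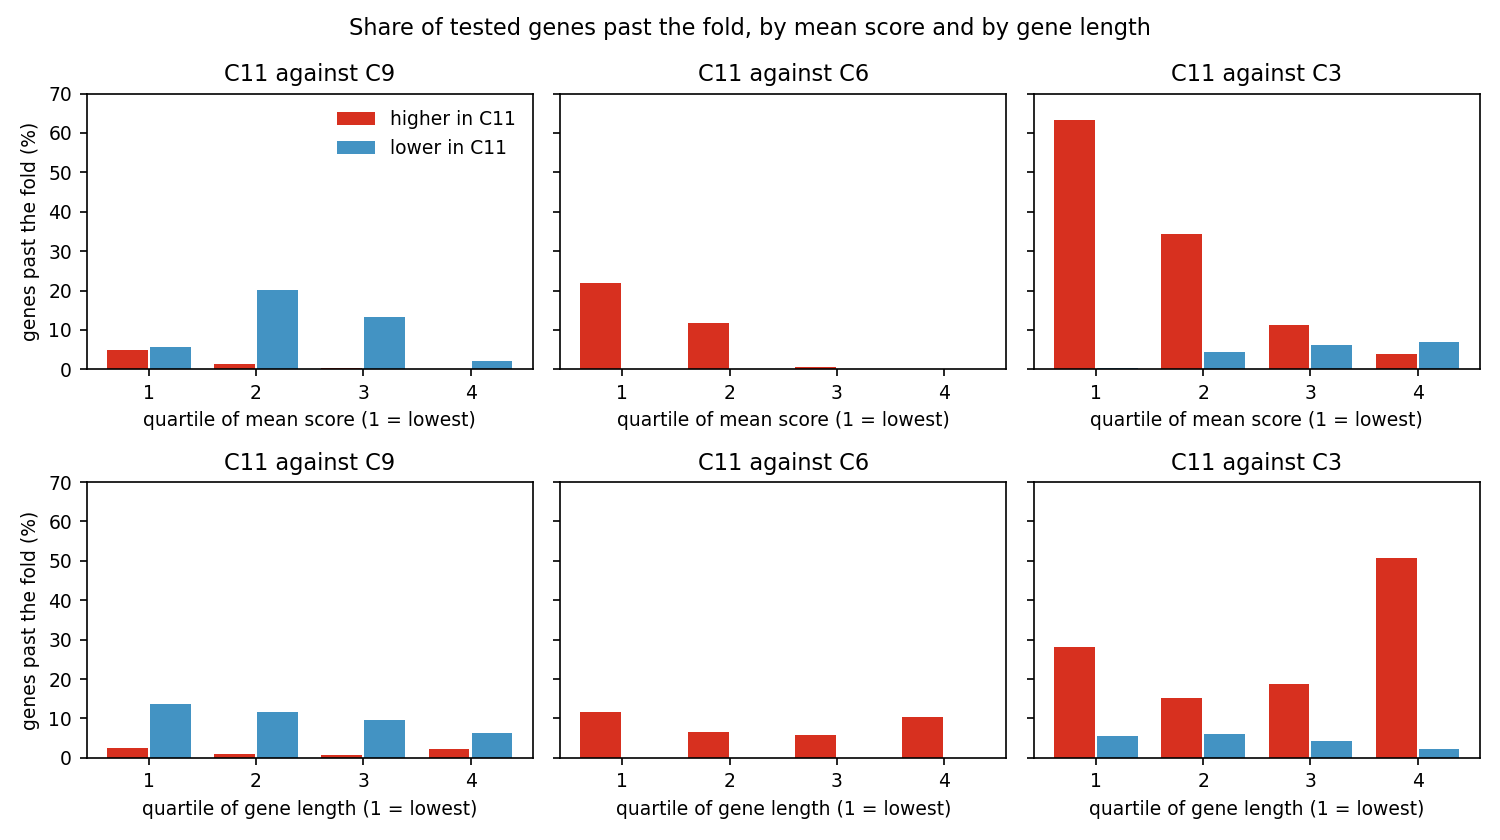
Percent of tested genes past the fold (y axis) in each quartile of genes by mean score (top) and by gene length (bottom), for C11 against C9, C6 and C3. Red bars are genes higher and blue bars genes lower in C11; against C3 the red bar falls from 63.3% in the lowest to 3.90% in the highest quartile of scores.

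Few genes set C11 above all 3 other clusters. Of 17236 genes tested in every comparison, 90 (0.522%) were past the fold higher in C11 than in each of C9, C6 and C3, and 0 (0%) were lower than in each; the 3 comparisons share the C11 values. With nuclei matched on fragments 86 were higher and 16 lower, and 23 of the 90 were among the 86. The count was 3 with a pseudocount of 5, 1 with a minimum mean score of 20, and 227, 226 of them higher, without the highest doublet scores. Twist1, a mesenchymal transcription factor gene, scored 10.2, 9.55 and 8.74 in C11, with means of 5.38 in C9, 5.26 in C6 and 1.40 in C3. Cpe, Tgfbi, Tenm3, Fam19a5, Scel, Ffar2, Rtp2, Dreh and AF067061 were the others of the leading 10, and their mean scores in C11 ran from 8.04 for Rtp2 to 26.1 for Tenm3. With nuclei matched on fragments Twist1 was at -0.20 and Ffar2 at -0.23 against C6. All 10 had means under the minimum of 5 in C3, and Rtp2, Dreh and AF067061 also in C9. Rtp2 (4.94) and AF067061 (4.48) were under it in C6 too. In each such comparison they passed it only through C11 and had to be higher. No gene of the erythroid lists was among the leading 10.

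Across the 17894 genes that were compared for distance, C11 differed from C6 (root mean square log2 difference 0.34 ± 0.07) and C9 (0.36 ± 0.03) by similar amounts, and from C3 by more (0.71 ± 0.04). Libraries of C11 differed from each other by 0.22 ± 0.03. The root mean square values against C6 were 0.373, 0.379 and 0.263 in replicates 1, 2 and 3. The Pearson correlation across these genes was 0.983, 0.985 and 0.993 with C6 in replicates 1, 2 and 3. With C9 it was 0.965, 0.973 and 0.979, so by correlation C11 lay nearer C6 in every library. The part of counting error in these distances and correlations was not tested.

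Within C11, scores were alike between libraries. The median SD over the 3 libraries of the log2 score was 0.09, and 30 genes (0.168%) had a range over 1. Sik1, a salt-inducible kinase gene, was one of them, at 54.7, 65.0 and 165 in replicates 1, 2 and 3. It was high in replicate 3 in the other clusters too, with 81.5, 93.1 and 156 in C9, 44.5, 55.4 and 159 in C6, and 21.9, 26.4 and 92.4 in C3. When the nuclei of each library were divided at their median fragment number, 843 of 19645 genes (4.29%) were past the fold higher in the deeper nuclei and 11 (0.056%) lower, with a median of 0.10. No gene of the progenitor-stage, globin, terminal maturation or transcription factor lists was among them, but 3 of 8 endothelial and stromal, 2 of 9 stem and progenitor and 1 of 16 myeloid markers were higher in the deeper nuclei. Gata2 was 0.37 ± 0.02 higher in the deeper nuclei and Myc 0.24 ± 0.08 higher, while Klf1 was at -0.07 ± 0.05.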

How the data were processed

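The 3 WT and 3 KO ATAC libraries made from nuclei of Ter119+ cells were used, and the other libraries of the series were not analysed here. Cell Ranger and the build mm10 are named in the submitters' processing notes, without a version. The clustering method, the data it used and the weighting of fragments in a gene score were not given in the sources used here. The deposited gene scores are a signal that the authors scaled so that each nucleus sums to 10000. The deposited table of nuclei gives, per the file headers, counts of ATAC fragments per nucleus, the fraction of fragment ends in peaks and in promoters, a nucleosome ratio, the enrichment at start sites, a doublet score, and the cluster, class and genotype. It lists each nucleus 2 times, and the first listing was used. The lowest number of fragments of a listed nucleus was 1000. The WT libraries held 66286151, 63912134 and 61655588 fragments in all.

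For each cluster and library the mean score was rescaled to 1000000 and compared as log2(score + 1) within the library, where the 6 values of a gene averaged 5 or more. The library was the replicate, errors are SD over 3 libraries, and no test was made between clusters. Genes were named by rule: the 8 highest and 8 lowest of each comparison, the 10 highest in all 3, 7 genes always, and the 2 highest and 2 lowest of each of 21 lists by the difference from C9; predicted models, small RNA and olfactory or vomeronasal receptor genes were counted and not named. Other list members are named where a count is given, after their values were seen. The cluster, the lists and the genes were chosen with earlier results of these data known. Alternatives changed the pseudocount, the filter, the centring, the nuclei (matched on fragments, or without the highest 10 percent of doublet scores) and the libraries. Of 24333 gene symbols 23863 occurred in the GRCm38.p6 table, and 16828 were matched to a promoter whose start lay within 200 bases. The procedure was tested on simulated data. Python 3.11.15, numpy 2.4.6, pandas 2.3.3 and matplotlib 3.10.9 were used.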

Additional observations from a re-analysis of the deposited data

How the results depend on the processing

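No paired analysis was possible as a separate check, because no test was made to which a replicate block could be added or from which it could be left out. Every difference was already paired by replicate, since it was taken within a library. Against C9, 2298 genes were past the fold in either direction, and 1319 with a pseudocount of 5, 1083 with a minimum mean score of 20, and between 2149 and 2775 without 1 library. Against C6 there were 1605, and 270 with a pseudocount of 5, 3027 with no filter, 60 with a minimum mean score of 20, 699 after median centring, and between 1515 and 2723 without 1 library, the highest without replicate 3. Against C3 there were 5667, and 11286 with no filter, 1614 with a minimum mean score of 20, and between 5385 and 6265 without 1 library. In all 3 comparisons together there were 90, and 3 with a pseudocount of 5, 330 with no filter, 1 with a minimum mean score of 20, 56 after median centring, 227 without the highest doublet scores, and 60, 172 and 209 without replicate 1, 2 and 3. Fewer genes enter with a higher minimum; the causes of the other shifts were not tested. Matching on fragments turned the sign against C6 of Twist1 (-0.20) and Ffar2 (-0.23), and of the named calls that could still be tested left 37 of 43 against C9, 6 of 26 against C6 and 46 of 53 against C3. A pseudocount of 5 left 24 of 44 against C9, 14 of 30 against C6 and 53 of 56 against C3. Over all settings 2792 values of single named genes moved by less than the spread between libraries, 380 moved by more, some of them through 0 where the gene was not called, and the 2 called values named above changed sign; of the list medians 410 moved by less and 152 by more. The fewest nuclei were averaged in C9 and in C6 of replicates 1 and 2 (544, 777 and 514, and 589 and 636); what this depth adds to the spread of low scores was not tested.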

Other observations

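Promoters of genes past the fold higher in C11 than in C9 held the AP-1 motif TGANTCA in 24 of 199 cases (12.1%), beside 5.23% of the 13346 tested genes with a matched window. The search covered both strands of the 250 bases before the start. For genes higher than C6 and C3 the shares were 7.09% and 5.67%, and over all promoter windows 6.75%. The genes higher than C9 had low scores, and their number fell from 313 to 25 with a pseudocount of 5. The AP-1 share was seen among 5 motifs and was not tested. The KO cluster C10 held 2972 KO and 2 WT nuclei. Gata2 scored 41.2 ± 2.74 there and 16.5 ± 1.79 in C11, and Irf1, an interferon regulatory factor, 36.0 ± 5.02 and 6.41 ± 0.99 (SD, n = 3 libraries each). The Gata2 scores of WT C9 given above were also higher than those of C11. Kit was 14.3 ± 0.38 in C10 and 14.6 ± 1.16 in C11. Klf1 was lower in C10 (224 ± 7.72 against 255 ± 6.49), as were Gata1 (77.6 ± 3.06 against 91.7 ± 2.39) and Tfrc (145 ± 3.43 against 169 ± 4.69). The Klf1 scores of WT C9 and WT C3 given above were near that of C10. For Gata1 and Tfrc the differences of C11 from WT C9 were -0.02 and 0.06. The differences from C10 were not put to the fold rule.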
